A study of Musca domestica with 16 samples.

Results

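Of 14631 house fly genes in the authors' deposited table, 88 differed moderately between the strains in the same direction in male heads and in testes, 43 higher in CSaY males and 45 higher in CS males. A gene was taken when the higher strain had at least 5 FPKM (fragments per kilobase of transcript, scaled to sequencing yield) in each tissue and the ratio of FPKM + 1 between the strains was 1.5 or more but below 4 in each tissue. Genes on the X chromosome, single-copy orthologs on chromosome III and 2 further genes were left out beforehand, and 5467 other genes met the same FPKM minimum and serve as the comparison. The members were thus chosen by the strain values of male heads and testes, which are given here as a description, with no test of them.

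The house fly, Musca domestica, sets its sex by a dominant male determiner whose chromosomal position varies between populations. Males of strain CS carry the determiner on chromosome III (IIIM males), and males of strain CSaY carry it on the Y chromosome (YM males). Messenger RNA came from unmated adults 4 to 6 days old, kept at 25 °C with 12 hours of light, dissected alive and without anaesthesia. Of the 16 libraries, 3 belonged to each of CS male heads, CSaY male heads, CS testes and CSaY testes, and 1 to each of CS female heads, CSaY female heads, CS ovaries and CSaY ovaries. Each strain is a single line, so the position of the determiner and any other difference between the lines cannot be told apart. The sources used here do not state how many flies went into a library.

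The male columns hold 1 value per group made by the authors from 3 libraries. The spread between libraries and the read depth are therefore unknown here, and the calls below rest on the authors' q values, with q below 0.05 taken as a call. In whole heads and gonads, fewer cells of a type and less RNA per cell cannot be told apart. Bcd, an egg-derived patterning gene of Drosophila, stood at 253 FPKM in CS and 249.7 FPKM in CSaY ovaries, at 1.96 and 0.577 FPKM in CS and CSaY testes, and was listed at 0 in all head groups. Of the marker genes of cell types, 5 were found by symbol, bcd among them. The nerve cell genes para-like and nAChRbeta3 stood at 20.9 and 44.6 FPKM in CS male heads and at 18.2 and 32.0 FPKM in CSaY male heads, and neither was called there. In testes nAChRbeta3 rose from 68.7 to 122 FPKM and para-like stood at 11.0 and 9.46 FPKM in CS and CSaY. The fat body genes yp3 and diptericin moved with strain in heads. Yp3, a yolk protein gene, stood at 66.0 FPKM in CS and 3.82 FPKM in CSaY male heads, and at 347 and 1328 FPKM in CS and CSaY female heads. Diptericin, an antimicrobial peptide gene of the fat body, stood at 298 and 48.1 FPKM in CS and CSaY male heads, and at 819 and 1.23 FPKM in CS and CSaY female heads. In testes yp3 moved in the other direction, from 7.05 FPKM in CS to 13.6 FPKM in CSaY, bcd fell, and diptericin stood at 2.08 and 4.18 FPKM. The part of these markers in the differences below was not tested.

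None of the 88 members has an informative symbol in the reference gene table, where the IDs of 64 were found. The word lists for pathways and cell types therefore matched no member, and the members are described by family, position and level. Of the 29 CSaY-higher genes found, 26 are protein-coding and 3 are long non-coding RNAs. Of the 35 CS-higher genes found, 33 are protein-coding, 1 is a long non-coding RNA and 1 is a pseudogene.

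**Figure D1:**
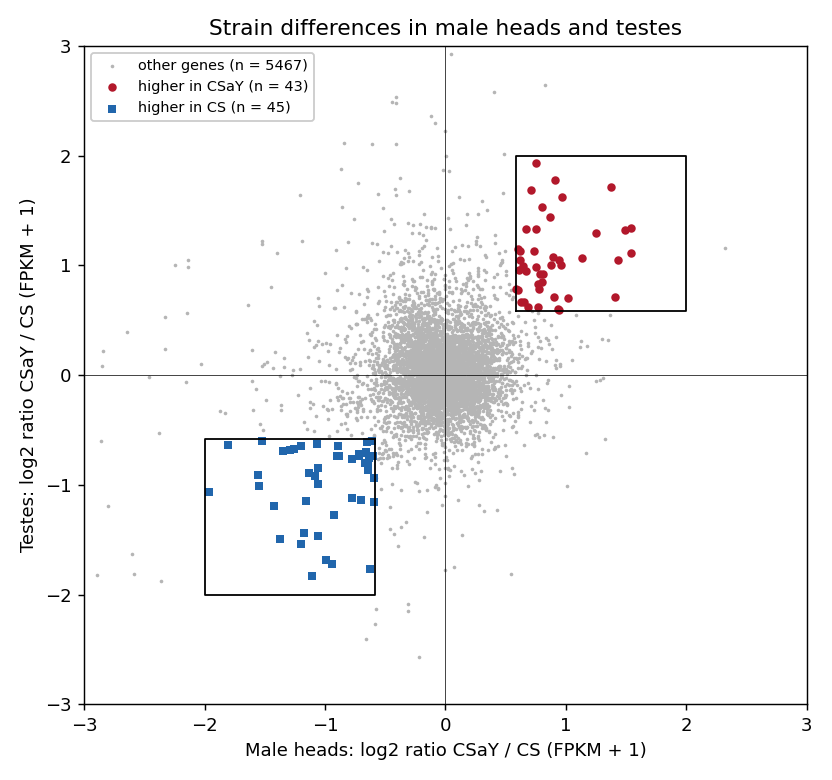
Log2 ratio of CSaY to CS (FPKM + 1) in male heads (x axis) and testes (y axis), 1 point per gene. The boxes are the limits of the rule, holding 43 genes higher in CSaY and 45 higher in CS males, beside 5467 other genes in grey, of which 16 lie outside the axes.

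The CSaY-higher genes stood at a median ratio of 1.74 in male heads (range 1.5 to 2.91) and 2.01 in testes (range 1.51 to 3.82). The testis difference was the larger in 31 of the 43. The CS-higher genes stood at a median ratio of 1.92 in male heads (range 1.51 to 3.89) and 1.80 in testes (range 1.51 to 3.57), and the testis difference was the larger in 23 of 45. In male heads the authors' q called 26 of the 42 tested CSaY-higher genes, where 3.39% of all tested genes were called higher in CSaY, and 34 of the 45 CS-higher genes, where 5.86% were called higher in CS. In testes it called 30 of 43 CSaY-higher genes, beside 7.61% of all tested genes, and 39 of the 44 tested CS-higher genes, beside 5.41%. Calls in both tissues held for 22 CSaY-higher genes, beside 0.674% of the genes tested in both, and for 32 CS-higher genes, beside 0.866%. No call in either tissue was made for 9 and 4 genes, respectively. The same values chose the members, so these shares are printed for scale only.

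LOC101894565 had the largest difference shared by both tissues among the CSaY-higher genes. It stood at 89.1 FPKM in CS and 233 FPKM in CSaY male heads, and at 8.12 and 29.0 FPKM in CS and CSaY testes, ratios of 2.60 and 3.29 (q = 0.00138 and q = 0.00107 in the authors' deposited table). It lies on scaffold NW_004766211 of chromosome III (positions 103991 to 104838). Its ortholog group held 12 house fly genes, and a second of them, LOC101888801, was a member too. LOC101888801 rose from 274 to 472 FPKM in heads and stood at 2.75 and 6.11 FPKM in testes (q = 0.154 there in the authors' deposited table). The group was mixed in testes. In male heads 3 of its 5 tested genes were called higher in CSaY and 0 higher in CS. In testes 4 of 10 were called higher in CSaY and 3 higher in CS. Both counts include the members, which were chosen by these values (the shares over all tested genes stand above). In heads, LOC101891874 was the only gene called besides them. LOC101891874, which the rule leaves out, was listed at 0 in CS and stood at 2.98 FPKM in CSaY male heads, and it rose from 34.2 to 63.0 FPKM in testes. LOC101894399 fell from 159.6 FPKM in CS to 26.5 FPKM in CSaY testes. The sources used here do not say how the authors assigned reads to copies of one family, which makes the values of single copies uncertain.

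A second family with a pair of CSaY-higher genes held LOC101899880 and LOC101887593, out of 4 house fly genes in the group. LOC101899880 rose from 80.9 to 159 FPKM in male heads and from 24.3 to 76.9 FPKM in testes. LOC101887593, on chromosome III, rose from 11.9 to 20.9 FPKM in heads and from 198 to 353 FPKM in testes. The authors' q called each of them in both tissues. They thus shared a direction with opposite tissue profiles, the first more abundant in heads and the second in testes. Another family, of 42 house fly genes, held LOC101900657 and LOC101901354, which lie 189 kb apart on scaffold NW_004764692 of chromosome III. LOC101901354 rose from 13.1 to 27.5 FPKM in heads and from 18.1 to 30.0 FPKM in testes, and LOC101900657 stood at 6.81 and 11.0 FPKM in heads (q = 0.0796 by the authors' deposited table) and rose from 17.8 to 37.9 FPKM in testes. In male heads 5 of the 36 tested genes of that family were called higher in CSaY and 0 lower, and in testes 3 of 38 were called higher and 1 lower. These counts include both members, and over all tested genes 3.39% were called higher in CSaY in heads, and 7.61% higher and 5.41% lower in testes, so the testis count is near the share over all genes. All 5 genes called in heads lie on chromosome III, and no tested gene of the family placed elsewhere or not placed was called there. These families were singled out after their values were seen.

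Among the other CSaY-higher genes with the largest shared differences, LOC101888653 rose from 9.14 to 28.5 FPKM in heads and from 6.54 to 15.3 FPKM in testes. LOC101893948, annotated as a long non-coding RNA, rose from 20.7 to 59.9 FPKM in heads and from 3.80 to 11.0 FPKM in testes. LOC101899627 rose from 37.2 to 82.8 FPKM in heads and from 2.33 to 5.95 FPKM in testes. All of these lack a D. melanogaster ortholog in the deposited table. LOC101893424 rose from 2.79 to 8.0 FPKM in heads and from 10.3 to 26.7 FPKM in testes. LOC101899838, a long non-coding RNA, rose from 21.7 to 65.1 FPKM in heads and stood at 1.98 and 6.54 FPKM in testes (q = 0.138 by the authors' deposited table). LOC101891736 stood at 1.40 and 5.47 FPKM in heads, where it was not tested, and at 7.11 and 15.7 FPKM in testes (q = 0.245 by the authors' deposited table). The last of these spans 250 bases, the shortest locus of the CSaY-higher genes.

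By the mean over the male groups, the most abundant CSaY-higher gene was LOC101898998 on chromosome III, which rose from 226 to 346 FPKM in heads and from 83.6 to 164 FPKM in testes. LOC101897802 on chromosome II, a single-copy ortholog of D. melanogaster FBgn0039054, rose from 88.6 to 143 FPKM in heads and from 178 to 273 FPKM in testes. LOC101890985 on chromosome III rose from 13.4 to 26.1 FPKM in heads and from 2.17 to 9.88 FPKM in testes. The male head level was at least 5 times the testis level in 8 of the 43 CSaY-higher genes, and the testis level at least 5 times the head level in 4.

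Of the 4 ortholog groups that hold 2 members each, 1 is among the CS-higher genes, and it is the one with a gene that has a symbol, GST-6A, a glutathione S-transferase. Glutathione S-transferases attach glutathione to foreign and toxic compounds, and insects carry many duplicated copies of them. The group was singled out after its values were seen, and its other genes have no annotation of their own in the sources used here. LOC101895555 fell from 241 FPKM in CS to 129.6 FPKM in CSaY male heads and from 48.4 to 28.7 FPKM in testes (q = 0.00138 and q = 0.00541 in the authors' deposited table). LOC101894873 fell from 285 to 148 FPKM in heads and from 41.9 to 12.0 FPKM in testes (q = 0.00138 and q = 0.00107 in the authors' deposited table). These genes lie 2.18 kb apart on scaffold NW_004765333 of chromosome II (positions 1471 to 2519 and 4696 to 5503), with no other gene between them. The next gene of the same group on the scaffold, LOC101895036 (positions 14224 to 15011), stood at 424 and 394 FPKM in CS and CSaY heads and at 61.7 and 60.5 FPKM in testes (q = 0.816 and q = 0.960 in the authors' deposited table). GST-6A itself stood at 523 and 611 FPKM in heads (q = 0.517 by the authors' deposited table) and rose from 60.2 to 104 FPKM in testes (q = 0.00107 there). Of the 5 genes in the group, 2 were thus lower in CSaY males in both tissues, 1 was higher in testes, and LOC101895036 and LOC101887250 were not called in either. Within 20 kb of the pair, 2 of 3 other genes were called lower in CSaY testes and 0 in heads, beside 5.41% and 5.86% of all tested genes.

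A second pair of CS-higher neighbours lies on scaffold NW_004766283, 130 bases apart. LOC101892010 (positions 61892 to 62738) fell from 331 to 115 FPKM in heads and from 45.3 to 29.6 FPKM in testes. LOC101891199 (positions 62869 to 63289) fell from 647 to 219.7 FPKM in heads and stood at 74.2 and 38.9 FPKM in testes (q = 0.101 by the authors' deposited table). Their log2 differences in heads were -1.52 and -1.55, and whether the annotated loci belong to separate transcripts was not tested. Of 9 other genes within 20 kb of the pair, LOC101891309 was called lower in CSaY heads, from 37.0 to 17.2 FPKM, and 0 were called in testes.

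Another pair lies 16.6 kb apart on scaffold NW_004765232 of chromosome I. LOC101898884 (positions 63766 to 64153) fell from 112 to 43.4 FPKM in heads and from 123 to 75.9 FPKM in testes. LOC101899237 (positions 80801 to 81240) fell from 17.5 to 3.74 FPKM in heads and from 26.2 to 12.0 FPKM in testes, with q = 0.0133 and q = 0.0473 in the authors' deposited table. The gene between them, LOC101899065, stood at 0.872 FPKM in CS heads and was listed at 0 in the other male groups. The last pair of neighbours, 7.63 kb apart on scaffold NW_004764668 of chromosome I, had opposite directions. LOC101887276 (positions 464433 to 467051) stood at 7.48 and 4.16 FPKM in CS and CSaY heads (q = 0.0725 by the authors' deposited table) and fell from 5.92 to 3.19 FPKM in testes. LOC101887442 (positions 474680 to 476185), a single-copy ortholog of D. melanogaster FBgn0040321, rose from 151 to 247 FPKM in heads and from 6.82 to 24.2 FPKM in testes. These 4 pairs are all the members that had another member within 50 kb.

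Among the other CS-higher genes, LOC101896442 on chromosome III was the most abundant by the same mean and fell from 1174 to 562 FPKM in heads and from 53.5 to 18.7 FPKM in testes. LOC101898528, a long non-coding RNA, fell from 185 to 79.8 FPKM in heads and from 14.2 to 4.21 FPKM in testes. LOC101888862 fell from 40.6 to 14.5 FPKM in heads and from 7.58 to 2.74 FPKM in testes. Neither LOC101898528 nor LOC101888862 has a D. melanogaster ortholog in the deposited table. LOC101901135 and LOC101892508, both on chromosome III and without such an ortholog, fell from 20.2 to 8.40 and from 14.1 to 5.78 FPKM in heads. In testes LOC101901135 fell from 24.1 to 8.24 FPKM and LOC101892508 from 75.7 to 33.7 FPKM. LOC101900812 fell from 7.10 to 2.76 FPKM in heads and from 10.5 to 2.22 FPKM in testes. LOC101898077 had the largest smaller ratio of all CS-higher genes, at 17.8 and 6.24 FPKM in heads and 14.7 and 4.57 FPKM in testes, and was called in neither tissue (q = 0.0889 and q = 0.118 in the authors' deposited table). Its locus is shared with another gene, as are those of 10 members in all, where the values of single genes are uncertain too.

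LOC101896019 on chromosome I was nearly restricted to heads among the male tissues, falling from 778 to 495 FPKM there and standing at 5.85 and 3.47 FPKM in testes (q = 0.165 by the authors' deposited table). LOC101899639, whose locus is also shared, was abundant in both tissues and higher in testes. It fell from 419 to 248 FPKM in testes and stood at 112 and 71.6 FPKM in heads (q = 0.0534 by the authors' deposited table). The male head level was at least 5 times the testis level in 15 of the 45 CS-higher genes (33.3%), in 18.6% of the CSaY-higher genes and in 8.45% of the other genes.

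At the edges of the rule, LOC101893579 and LOC101892161 lay just inside for CSaY, with lower ratios of 1.501 and 1.509, and LOC101893720 and LOC101892801 just outside, at 1.498 and 1.483. LOC101892801 belongs to the family of 42 genes named above. For CS, LOC101895316 and LOC101895457 lay just inside at 1.506 and 1.508, and LOC101900126 and LOC101888022 just outside at 1.498 and 1.492. At the upper bound, LOC101897095 (3.820) and LOC101890985 (3.431) were inside for CSaY, and LOC101893070 (4.988) and LOC101897967 (6.233) were outside. For CS, LOC101899237 (3.894) and LOC101900812 (3.568) were inside, and LOC101895393 (4.822) and LOC101894373 (5.151) were outside.

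In female heads, whose libraries the rule did not use, the strain difference ran mostly the other way. Of the 43 genes higher in CSaY males, 13 were higher in the CSaY and 30 in the CS female head library, with a median log2 difference (CSaY minus CS) of -0.46, against 0.80 in male heads. Of the 45 genes higher in CS males, 36 were higher in the CSaY and 9 in the CS female head library, with a median of 0.31, against -0.94 in male heads. Among the other genes 2669 were higher in CSaY and 2790 in CS, with a median of -0.01. By at least 1.5 times, 15 of the CSaY-higher genes were higher in the CS female library and 3 in the CSaY one. Among the CS-higher genes the corresponding numbers were 5 and 14. As shares these were 34.9% and 6.98% of the CSaY-higher and 11.1% and 31.1% of the CS-higher genes, against 5.84% and 5.52% of the other genes. The strain of each female library is taken from its label, which the group values cannot check, and an exchange of these labels would turn the sign of every strain difference in female heads. With 1 library per strain there is no replicate check, and the q values set 1 library against another. It called 1 member, LOC101897868, where 0.455% of all tested genes were called higher in CS and 0.317% higher in CSaY.

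**Figure D2:**
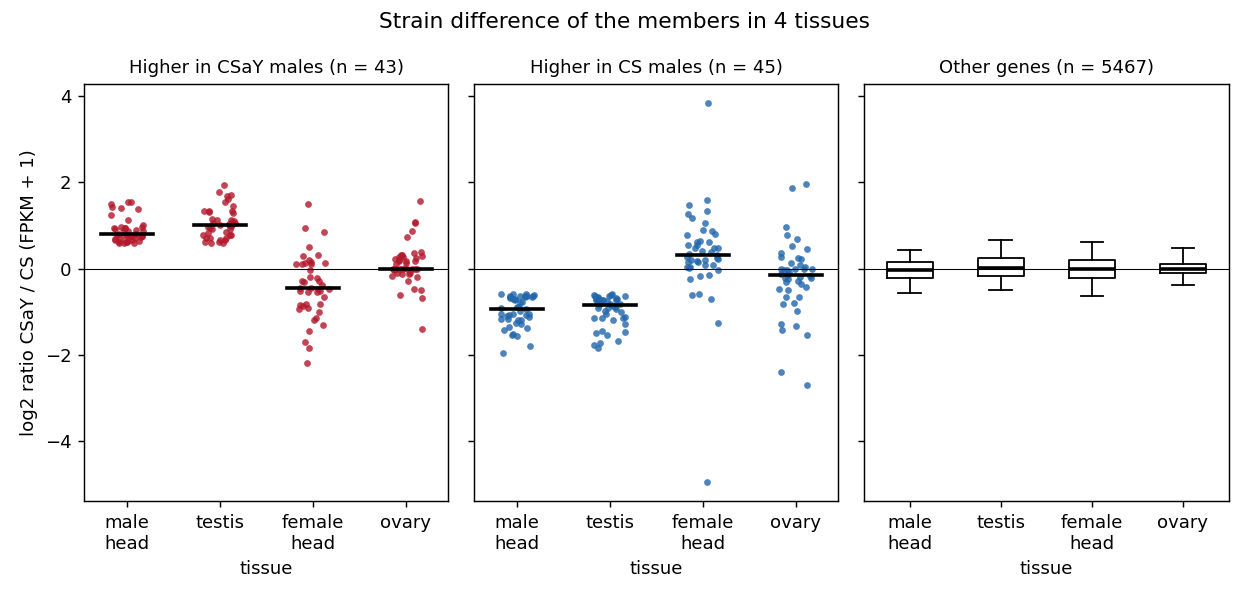
Log2 ratio of CSaY to CS (FPKM + 1) in 4 tissues for the 43 genes higher in CSaY males, the 45 higher in CS males and 5467 other genes. Points are genes and thick bars medians, and the boxes of the other genes show quartiles with whiskers at the 5th and 95th percentiles. The medians of the members lie on opposite sides of 0 in male and female heads, at 0.80 and -0.46 for the CSaY-higher and at -0.94 and 0.31 for the CS-higher genes.

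The neighbours of the GST-6A group are an example. LOC101895555 stood at 191 FPKM in CS and 399 FPKM in CSaY female heads, and LOC101894873 at 241 and 451 FPKM. In male heads both were higher in CS. LOC101897868, a single-copy ortholog of D. melanogaster FBgn0034140 on chromosome V, rose from 23.6 FPKM in CS to 46.7 FPKM in CSaY male heads and from 40.3 to 82.0 FPKM in testes. In female heads it stood at 143 FPKM in CS and 30.7 FPKM in CSaY (q = 0.0153 by the authors' deposited table). LOC101894565 was higher in CSaY males but stood at 249 FPKM in CS and 91.2 FPKM in CSaY female heads. LOC101887442 stood at 220.3 and 95.5 FPKM, LOC101892778 at 187 and 472 FPKM, and LOC101898564 at 11.9 and 34.9 FPKM in CS and CSaY female heads. In male heads LOC101892778 stood at 142 and 48.1 FPKM and LOC101898564 at 26.1 and 13.3 FPKM in CS and CSaY. An exception was LOC101888801, higher in CSaY in both sexes, at 579 FPKM in CS and 1035 FPKM in CSaY female heads.

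Genes that differed in male heads alone did the same. Of 94 genes with a ratio of 1.5 to 4 toward CSaY in male heads but under 1.5 in testes, 70 were higher in the CS female head library (74.5%), close to the 69.8% of the CSaY-higher members. Of 193 genes with such a ratio toward CS in heads alone, 133 were higher in the CSaY female head library (69.3%), against 80.0% of the CS-higher members. Genes that differed in testes alone leaned the same way less far, with 57.7% of 319 and 60.5% of 152. The difference between these shares was not tested. Over the 5555 genes that met the FPKM minimum, Spearman's rho between the strain differences of male and female heads was -0.18 and that of testes and female heads -0.06. Genes are not independent replicates, and each correlation rests on the same single pair of female libraries.

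**Figure D3:**
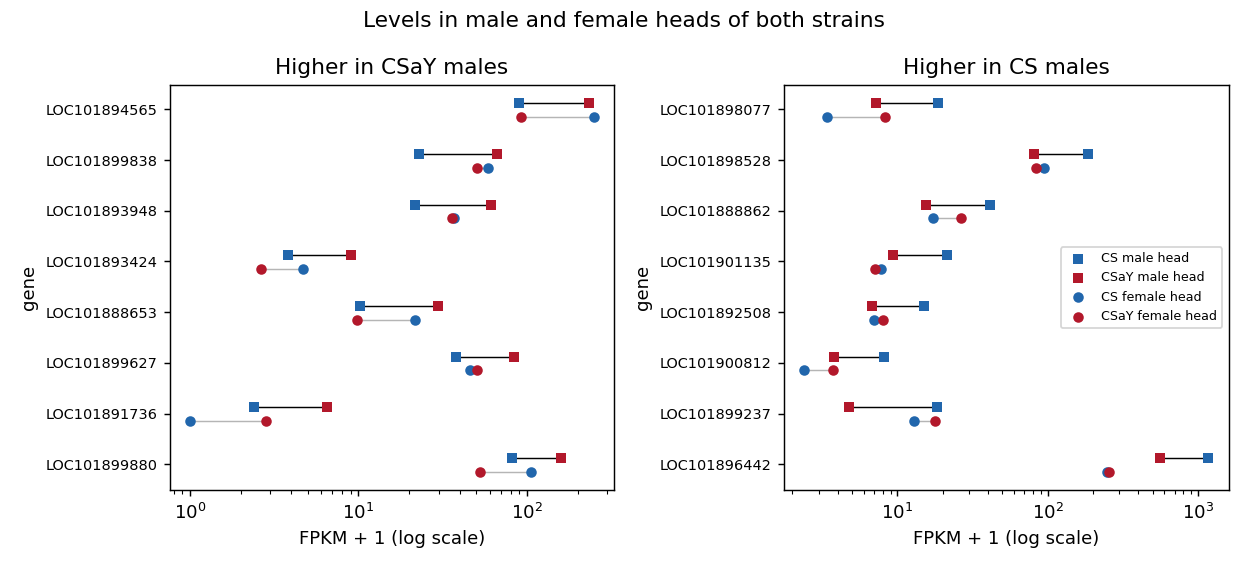
FPKM + 1 on a log scale in male (squares) and female (circles) heads of CS (blue) and CSaY (red) for the 8 members of each direction with the largest differences shared by male heads and testes. In LOC101894565, for example, CSaY is the higher strain in males (233 against 89.1 FPKM) and the lower in females (91.2 against 249 FPKM).

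In ovaries the strain difference more often had the direction of the males. Of the 36 CSaY-higher genes above 0 in an ovary library, 23 were higher in the CSaY library (63.9%), and of the 42 CS-higher genes 28 were higher in the CS library (66.7%). The shares among the other genes were 49.9% and 50.1%. The differences were small, with medians of 0.00 and -0.16 on the log2 scale. The most frequent pattern was a female head opposite to the males and an ovary alike, in 18 of 43 CSaY-higher and 26 of 45 CS-higher genes. Both female tissues had the direction of the males in 5 and 2 genes, and both the opposite in 6 and 8.

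Of the 5 CSaY-higher genes with the direction of the males in all tissues, LOC101891736 had the largest difference in female heads, listed at 0 in CS and at 1.83 FPKM in CSaY. The log2 differences in female heads of the other 4 lay between 0.10 and 0.51. LOC101896886 stood at 19.1 and 23.7 FPKM in CS and CSaY female heads and at 1.14 and 1.74 FPKM in CS and CSaY ovaries. LOC101888159 stood at 36.2 and 38.9 FPKM in female heads and at 413 and 451 FPKM in ovaries. LOC101901135 and LOC101895972 were the CS-higher genes of this kind, the latter with 241 and 235 FPKM in CS and CSaY female heads. In ovaries the authors' test called 2 members, both CS-higher genes. LOC101895457 was lower in CSaY (36.4 and 12.9 FPKM, q = 0.0163 in the authors' deposited table), where 0.0511% of tested genes were called higher in CS. LOC101901690 was listed at 0 in CS and stood at 2.91 FPKM in CSaY, where 0.306% were called higher in CSaY.

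Between the sexes, 11 of the 43 CSaY-higher genes were called higher in female heads (25.6%) and 0 higher in male heads. Of the 45 CS-higher genes 8 were called higher in female heads (17.8%) and 5 in male heads (11.1%). Of all tested genes 11.2% were called higher in female and 2.12% in male heads, and of the other genes meeting the same minimum 10.6% and 1.56%. Raised shares were not particular to the members. For genes higher in CS in male heads alone they were 31.2% and 5.73%, and for those higher in CSaY in male heads alone 6.38% and 1.06%. For genes higher in CSaY in testes alone they were 18.5% and 2.51%, and for those higher in CS in testes alone 7.95% and 6.62%. The difference between these sets and the members was not tested. On the mean of the strain columns the median log2 difference, male minus female, was 0.18 for the CSaY-higher, 0.54 for the CS-higher and 0.36 for the other genes, and the authors' statistic gives the direction of the calls. LOC101892161 had the largest difference, at 1925 and 1668 FPKM in CS and CSaY female heads and at 47.4 and 92.1 FPKM in CS and CSaY male heads (q = 0.000717 by the authors' deposited table). LOC101888576 stood at 127 and 107 FPKM in CS and CSaY female heads and at 17.9 and 9.98 FPKM in CS and CSaY male heads (q = 0.000717 by the authors' deposited table). In both genes the female libraries lay well above both male groups.

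LOC101896442 was one of the 5 genes called higher in male heads, at 1174 and 562 FPKM in CS and CSaY males and at 249 and 255 FPKM in CS and CSaY females. In other genes females were the higher sex in both strains, by different amounts. LOC101894695 stood at 19.7 and 35.1 FPKM in CS and CSaY male heads and at 87.4 and 45.8 FPKM in CS and CSaY female heads, so the sexes differed more in CS. LOC101892778 and LOC101891395 differed more in CSaY, LOC101891395 with 150.3 and 71.4 FPKM in CS and CSaY males and 268 and 494 FPKM in CS and CSaY females. No test of sex by strain is in the table. Of the female head values, each rests on 1 library.

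The members were more often called higher in testis than in ovary. Of the 43 CSaY-higher genes 20 were called higher in testis (46.5%) and 11 in ovary (25.6%), and of the 45 CS-higher genes 28 (62.2%) and 7 (15.6%). Among all tested genes 32.4% were called higher in testis and 41.3% in ovary, and among the other genes meeting the same minimum 26.5% and 48.9%. The median log2 difference, testis minus ovary, was 1.23 for the CSaY-higher, 2.21 for the CS-higher and -0.20 for the other genes, on the mean of the strain columns. The minimum of 5 FPKM in testis applied to all 3 sets. In both ovary libraries 12 of 43 and 12 of 45 members stood below 1 FPKM (27.9% and 26.7%), against 9.82% of the other genes. A lean toward testis was not particular to the members. Of the genes higher in CSaY in testes alone, 47.0% were called higher in testis and 26.6% in ovary. For those higher in CS in testes alone the shares were 36.8% and 29.6%. For those higher in CS in male heads alone they were 51.0% and 22.9%. Those higher in CSaY in male heads alone were slightly more often called higher in ovary. The difference between these sets and the members was not tested.

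As a mean of the strains, LOC101897802 reached 225 FPKM in testis and 0.278 FPKM in ovary. LOC101887593 stood at 276 FPKM in testis and 6.82 FPKM in ovary, so both were largely testis genes among the gonads. LOC101898564, a single-copy ortholog of D. melanogaster FBgn0031313, stood at 30.2 FPKM in testis and 0.241 FPKM in ovary. Of the GST-6A group, LOC101895555 was called higher in testis as well, with 38.6 FPKM in testis and 0.937 FPKM in ovary. Members higher in ovary were fewer and included LOC101891736, at 652 FPKM in ovary and 11.4 FPKM in testis, and LOC101888159, at 432 FPKM in ovary and 36.2 FPKM in testis.

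**Figure D4:**
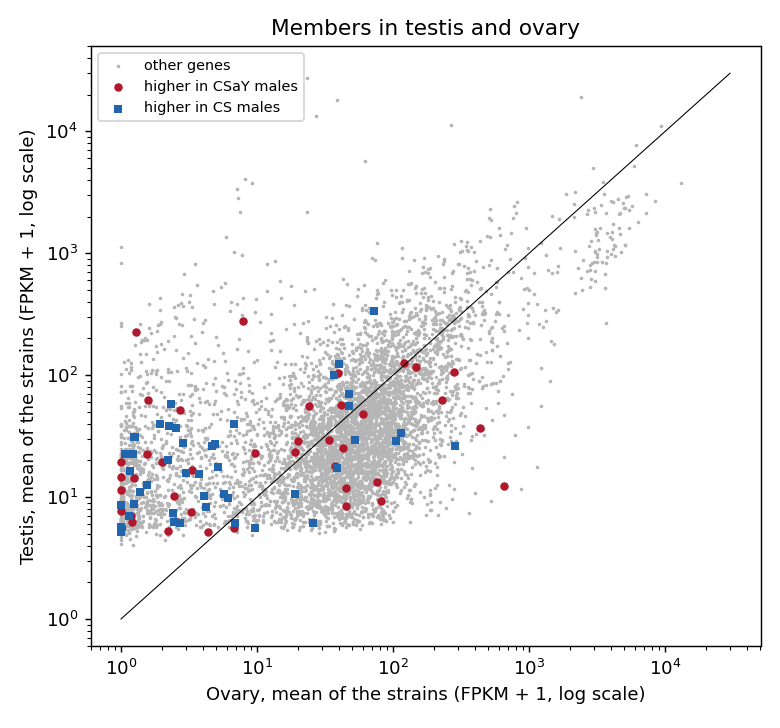
FPKM + 1 in ovary (x axis) and testis (y axis), mean of the strain columns, both on log scales, 1 point per gene with the line of equality. Of the members, 20 of 43 CSaY-higher and 28 of 45 CS-higher genes were called higher in testis, and 11 and 7 higher in ovary.

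Single-copy orthologs were scarce among the members. Genes with 1 house fly and 1 D. melanogaster copy made up 9 of the 43 CSaY-higher (20.9%) and 12 of the 45 CS-higher genes (26.7%), against 64.2% of the other genes. No D. melanogaster gene was listed for 21 of 43 (48.8%) and 13 of 45 (28.9%), against 9.40%. Genes of groups with several copies in both species made up 20.9% and 24.4%, against 12.1%. The single-copy genes of chromosome III were left out of all 3 sets. Loci were also shorter, with a median span of 1991 bases for the CSaY-higher, 2088 for the CS-higher and 3700.0 for the other genes. At a given FPKM a shorter transcript rests on fewer reads. The span is the extent of the locus, however, and transcript lengths were not available here. The median level in male heads was 20.3 FPKM for the CSaY-higher, 33.1 for the CS-higher and 31.4 for the other genes. In testes the members were lower, with medians of 17.0 and 16.6 FPKM, against 30.2 FPKM for the other genes.

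By scaffold, 13 of the 43 CSaY-higher genes lay on chromosome III (30.2%) and 8 of the 45 CS-higher genes (17.8%), against 5.71% of the other genes. These shares are not like for like. The rule leaves out the single-copy genes of chromosome III, so every gene counted there is of another ortholog class. Single-copy genes make up 64.2% of the other genes but 20.9% and 26.7% of the members, which holds down the 5.71% the most. The part of this in the difference was not tested. Chromosome I held 3 CSaY-higher genes (6.98%) and 9 CS-higher genes (20%), against 16.8% of the others. Chromosome IV held 1 and 3, against 18.5%. No chromosome was assigned to 15 of 43 and 14 of 45 members (34.9% and 31.1%), against 12.0% of the other genes, and the table gives a chromosome to none of the 451 genes without an ortholog class, 7 CSaY-higher and 4 CS-higher members among them. Outside chromosome III there were 30 CSaY-higher and 37 CS-higher genes, those without a chromosome included.

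**Figure D5:**
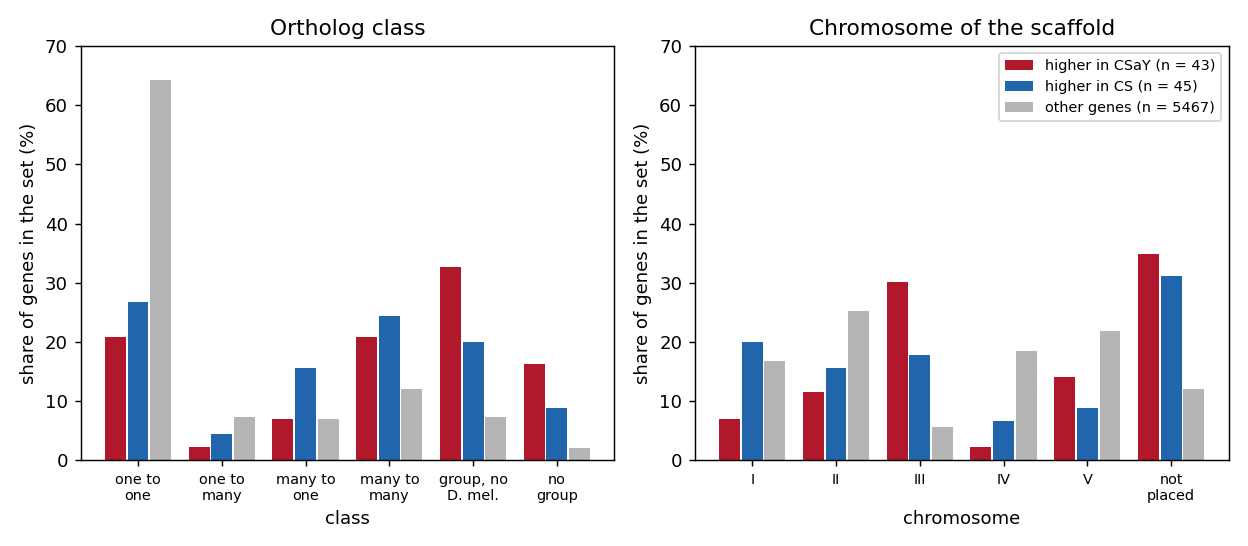
Share of genes (%) by ortholog class (left, house fly copies first, then D. melanogaster copies) and by chromosome of the scaffold (right) among 43 CSaY-higher, 45 CS-higher and 5467 other genes. The one-to-one class holds 20.9% and 26.7% of the members and 64.2% of the other genes, and chromosome III holds 30.2%, 17.8% and 5.71%. One-to-one genes of chromosome III are left out of every set, so the shares on that chromosome are not like for like.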

How the data were processed

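Libraries, 16 in all, were made from heads and gonads of both sexes of strains CS and CSaY. Per the submitters' processing notes, the tools included Cufflinks 2.2.1, TopHat2 2.0.8b, CASAVA 1.8.2 and Bowtie2 2.1.0.0. The sources used here give neither their roles nor the genome build. The FPKM values are those the authors deposited, per the file headers 1 for each strain and tissue. A further 4 FPKM columns, which pool the strains, were not used here, a departure from the planned design. The authors' deposited test statistic, a score, served only for its sign, which gives the direction of their sex and gonad calls (the strain columns gave it where the statistic has no value). The q values of 6 comparisons are the authors' deposited ones, and a gene lacking a q counts as untested. With group values alone, neither spread nor depth nor intervals are given. Ratios were taken on FPKM + 1, and levels across tissues are the mean of the strain columns. No test was added. The code of the rule was checked on simulated data, with planted genes well inside the ratio bounds. That check says nothing about the members chosen from the real values.

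The members and lists were chosen with earlier results of these data known. Genes were named by rule. The rule takes, in each direction, the 8 largest shared differences, the 4 highest levels, up to 4 genes alike and 2 opposite in both female tissues, up to 4 called sex differences in heads and in gonads, members within 50 kb of each other, and the edges of the ratio bounds. Other genes in the text were chosen after their values were seen. Symbols were looked up in RefSeq genes of assembly GCF_030504385.1, in which 12168 of 14631 IDs were found. Positions are those of the deposited table. No sequence of a member is shown, since none was used here. The work was done in Python 3.11.15 with pandas 2.3.3, numpy 2.4.6 and matplotlib 3.10.9.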

Additional observations from a re-analysis of the deposited data

Results flagged for a closer look

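The strain difference of the members ran in opposite directions in male and female heads, and the difference between the sexes was not tested. The median log2 difference (CSaY minus CS) in female heads was -0.46 for the genes higher in CSaY males and 0.31 for the genes higher in CS males. Among single genes named for being opposite in both female tissues, LOC101893579 stood at -0.88 and LOC101891591 at -0.52 in female heads, though both were higher in CSaY male heads and testes. LOC101895555, of the ortholog group that holds GST-6A, stood at 1.06 and LOC101895929 at 0.81, though both were lower in CSaY male heads and testes. Each female value rests on 1 library, whose strain label could not be checked from the group values.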

How the results depend on the processing

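The number of members depended most on the thresholds. With a minimum of 1 FPKM there were 69 CSaY-higher and 74 CS-higher genes, with a ratio of at least 2 there were 7 and 9, with a minimum of 10 FPKM there were 25 CSaY-higher genes, and 22 CSaY-higher genes were called in both tissues. The cause was the altered filter itself. Counting only ratios of at least 1.5, the share of CSaY-higher genes with the same direction in female heads was 16.7% of 18 genes, against 30.2%. Requiring 2-fold left 7 of 11 CSaY-higher and 5 of 8 CS-higher genes called higher in female heads. At q below 0.01 there were 2 CS-higher genes called higher in male heads instead of 5, and with the strain columns 1 CSaY-higher gene was higher in male heads instead of 0. Placed by ortholog, 0 members of either direction lay on chromosome III (of 9 and 11 placed), against 58 of the 3465 other genes placed. The rule leaves out the single-copy genes that their scaffold puts on chromosome III, so no single-copy member can lie there by scaffold. The 9 and 11 members placed by ortholog nearly match in number the 9 and 12 single-copy members. A low count by ortholog is thus largely built into the rule and is no check of the count by scaffold. In the other 55 alternative values, counts stayed within 1.5 times and shares within the exact binomial 95% interval. No paired analysis was possible because the male values are group values of 3 libraries, and leaving out a replicate could not be run for the same reason.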
